A study of Rattus norvegicus with 9 samples.

Results

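The renin-angiotensin system genes examined here were Agt, Ace, Enpep, Lnpep, Agtr1a, Agtr2, Mas1 and Atp6ap2, taken by gene name from a table of RNA levels in rat lumbar spinal cord, where they made up 8 of 34890 loci. RNA sequencing was done on L3-L6 spinal cord of wild-type male Sprague Dawley rats, whose age was not given, in 3 groups of 3 biological replicates. JA rats had sham surgery, which exposed the sciatic nerve branches without cutting them, and were given saline by gavage. SNI rats had spared nerve injury, in which the common peroneal and tibial branches were ligated and cut and the sural branch was left intact, and were given the same volume of saline. PLM rats had the same injury and were given paeoniflorin, a compound of peony root, together with liquiritin, a compound of licorice root, for 21 days. The paeoniflorin solution was 20.65 mg/mL in all 3 PLM samples. The labels give the liquiritin as 3.98, 3.99 and 3.100 mg/mL in PLM replicates 1, 2 and 3, whereas the study's methods describe a single dose for the group. No sample here had the drugs without the injury.

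The renin-angiotensin system turns a secreted precursor, angiotensinogen, into small peptides by successive cuts. A protease releases angiotensin I from angiotensinogen, angiotensin-converting enzyme trims it to angiotensin II, and aminopeptidases shorten the peptide further. Angiotensin II acts through the AT1 and AT2 receptors, other fragments act through Mas, and in the brain and spinal cord angiotensinogen is made mainly by astrocytes.

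Values are TPM, a unit of transcript abundance that corrects for transcript length and sums to the same total in all samples, so that levels can be set side by side between genes. Each pair of groups was compared with limma on log2(TPM + 1). A change was called where the p-value, after Benjamini-Hochberg adjustment over all loci averaging 1 TPM or more, was under 0.05. Log2 differences below are differences of log2(TPM + 1), and they understate the changes of low genes. They are given as deposited and after each sample was shifted to the same median (median-centred), because the median of all loci tested moved by -0.21 in PLM versus SNI, by 0.12 in SNI versus JA and by -0.10 in PLM versus JA.

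A few facts of the libraries bear on these genes. The 13 mitochondrial protein genes took 31.3% to 32.8% of TPM in PLM and 23.7% to 26.1% in SNI, with no overlap, and 25.3% to 32.8% in JA. Markers of neurons, oligodendrocytes and astrocytes were present in every sample. The summed level of 12 astrocyte markers was 3007 to 3581 TPM in PLM, 5455 to 6597 TPM in SNI and 4128 to 6498 TPM in JA, and none of these markers was at 0. Markers of Schwann cells, the myelinating cells of nerve roots, varied within every group, from 125 to 7893 TPM in JA, 579 to 4492 TPM in SNI and 277 to 3304 TPM in PLM, and JA replicate 3 was the highest of all. Markers of blood cells summed to 6170 to 8435 TPM in PLM, 3171 to 5664 TPM in SNI and 4115 to 9224 TPM in JA, and markers of oligodendrocytes to 49327 to 50392 TPM in PLM, 45521 to 47760 TPM in SNI and 48166 to 55622 TPM in JA. Both sums were higher in PLM than in SNI without overlap. Of the 8 oligodendrocyte markers, 4 were nevertheless below 0 as deposited in PLM versus SNI, with a median log2 difference of -0.05. After centring on the median, 0 of the 8 were below 0 and their median was 0.20. After median-centring, 5 of 8 microglia markers and 4 of 6 endothelium markers were also higher in PLM without overlap, as 14.1% of all loci were, with medians of 0.27 and 0.28. By limma 6 of the 8 and 3 of the 6 had an unadjusted p-value under 0.05 on the centred values (16.9% of all loci) and none was called. As deposited 0 of either list were higher without overlap. In the other direction, 1 microglia marker was lower without overlap as deposited (41.9% of all loci) and 1 after median-centring (9.73%). As deposited 1 microglia marker was called lower by limma, as 13.6% of all loci were. The part of these cell types in the results was not tested. In bulk tissue, fewer cells of a type and less RNA per cell cannot be told apart. The labels name biological replicates without giving individual animals, so p-values measure the spread between these samples.

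Promoter sequences were available for 7 of the 8 genes in RefSeq (assembly GRCr8), and 4 are shown because they set the receptor and enzyme genes with a TATA-like motif against the most abundant gene without it. Each window runs from 45 bases before to 5 bases after the annotated start, 5′ to 3′ on the gene's strand, and capitals mark TATAA. The windows lie at chr10:91410084-91410133 on the plus strand (Ace), chr17:34435428-34435477 on the minus strand (Agtr1a), chrX:116914275-116914324 on the plus strand (Agtr2) and chrX:12883666-12883715 on the minus strand (Atp6ap2).
Ace: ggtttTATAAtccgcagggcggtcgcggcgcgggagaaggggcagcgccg
Agtr1a: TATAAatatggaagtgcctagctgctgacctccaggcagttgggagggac
Agtr2: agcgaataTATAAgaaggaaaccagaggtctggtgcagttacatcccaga
Atp6ap2: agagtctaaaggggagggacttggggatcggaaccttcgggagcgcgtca
Over the whole 300 bases, from 250 before to 50 after the start, TATAA was searched on both strands. It occurred in Ace, Agtr1a and Agtr2, and in Ace the letters TTATAA match on both strands at the same place. Its letters were not in the windows of Enpep, Lnpep, Mas1 and Atp6ap2. Of 33469 promoters of this length, 26.2% hold it. The dinucleotide CG occurred 34 times in Ace, 33 times in Lnpep and 25 times in Atp6ap2, against a median of 7 over all promoters. Agtr1a had 11, Enpep 8, and Agtr2 and Mas1 had 3 each, so the 3 receptor genes together with Enpep had fewer than the other 3. Agt was not matched.

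The 8 genes spanned a wide range of levels, with the precursor and the (pro)renin receptor far above the enzymes and the receptors lowest. Agt had a mean of 268.0 TPM over the 9 samples and Atp6ap2 a mean of 114.8 TPM. Lnpep and Ace followed at 7.81 and 6.69 TPM, Enpep at 3.12 TPM, Agtr1a at 1.25 TPM and Agtr2 at 0.349 TPM. Mas1 was lowest, at 0.05 to 0.29 TPM. Neighbours in this order did not overlap between Ace and Enpep, between Enpep and Agtr1a, or between Agtr1a and Agtr2 in any of the 9 samples. Agt lay above Atp6ap2 in every JA and SNI sample but overlapped it in PLM, and in PLM replicate 3 Atp6ap2 was the higher of the pair, at 115.9 TPM against 113.9 TPM. Lnpep and Ace overlapped in JA and PLM and were apart in SNI, where Lnpep was higher. Agtr2 and Mas1 overlapped. With means under 1 TPM, Agtr2 and Mas1 did not pass the filter on low values, so 6 of the 8 genes were tested.

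**Figure D1:**
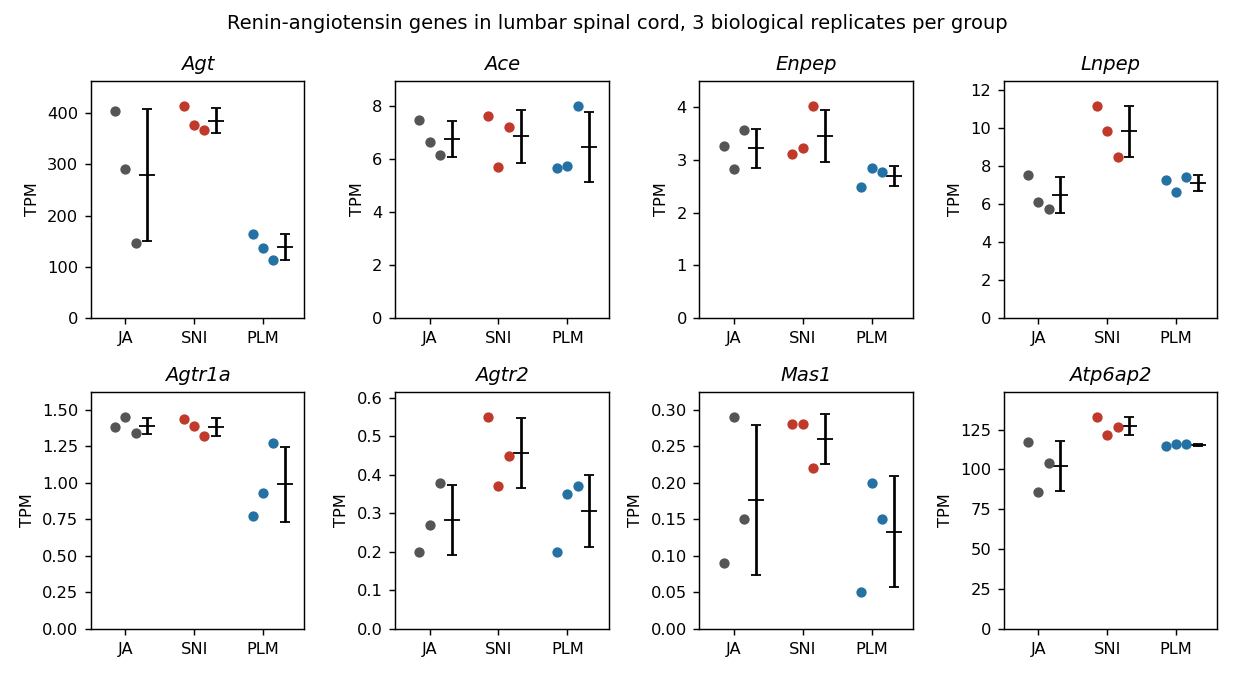
TPM of the 8 renin-angiotensin genes in each of 3 samples of JA (grey), SNI (red) and PLM (blue), with the group mean and SD (black) beside the points; each panel has its own axis from 0. Agt lies at 114 to 165 TPM in PLM and 366 to 413 TPM in SNI, while the JA samples spread from 146 to 403 TPM.

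Between PLM and SNI, Agt was the single gene of the 6 tested that passed the threshold, and it was lower in PLM. Agt encodes angiotensinogen, the precursor of all angiotensin peptides. Its level was 412.9, 377.1 and 366.5 TPM in SNI replicates 1, 2 and 3, and 165.0, 137.4 and 113.9 TPM in PLM replicates 1, 2 and 3. All 3 PLM samples were below all 3 SNI samples, by a margin wider than the spread within either group. The log2 difference was -1.48 (SE 0.13, 95% interval from -1.81 to -1.16, adjusted p = 0.00526, limma). In this comparison 13.9% of the 15474 loci tested were called, 2110 lower and 38 higher. After median-centring, 0.814% were called, 106 lower and 20 higher, and Agt remained among those that fell, with a log2 difference of -1.23 (SE 0.16, adjusted p = 0.0386, limma). With the mitochondrial protein genes left out of the total it was -1.34 (adjusted p = 0.0156, limma). As deposited, its change went beyond the median of all loci by -1.27, and 109 loci had a larger fall than Agt. With any 1 of the 6 samples left out, the log2 difference was between -1.61 and -1.35 and the adjusted p-value between 0.00809 and 0.0337.

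Agt in the sham group did not stand at a single level. It measured 403.2, 290.3 and 145.9 TPM in JA replicates 1, 2 and 3, a mean of 279.8 ± 129.0 TPM (SD, n = 3). The lowest of these lay within the range of PLM and the highest within the range of SNI, so the JA group overlapped both. SNI versus JA gave a log2 difference of 0.58 (SE 0.34, 95% interval from -0.23 to 1.39, adjusted p = 0.614, limma). Without JA replicate 3 it was 0.17, and without JA replicate 1 it was 0.90. JA replicate 3 had the highest summed markers of Schwann cells, of blood cells and of meninges and fibroblasts of all samples. The part of nerve root, blood or meningeal RNA in the level of Agt was not tested. PLM versus JA gave -0.90 (SE 0.36, adjusted p = 0.412, limma), and it was -1.31 without JA replicate 3 (adjusted p = 0.0808) and -0.58 without JA replicate 1 (adjusted p = 0.552). After median-centring, SNI versus JA was 0.46 (adjusted p = 0.889, limma) and PLM versus JA was -0.78 (adjusted p = 0.5085, limma). SNI versus JA and PLM versus SNI share the SNI samples, and PLM versus JA shares samples with both.

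Agt took a larger share of the summed TPM of the 8 genes in every SNI sample than in any PLM sample. Its share was 72.5%, 72.6% and 71.2% in SNI replicates 1, 2 and 3, and 55.8%, 50.9% and 45.6% in the PLM replicates. In JA the shares were 74.6%, 73.8% and 54.6%, with replicate 3 again next to PLM. The sum contains Agt itself, and Atp6ap2 made up most of the rest, 21.7% to 46.4% of the sum. The share is therefore not a result separate from the level of Agt.

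In PLM versus SNI, astrocyte markers were lower as Agt was, and so were some markers of meninges and fibroblasts. In PLM versus SNI, 11 of the 12 markers were called lower as deposited and 8 of 12 after median-centring, where 13.6% and 0.685% of all loci tested were called lower. The median of the 12 log2 differences was -1.24, from -1.95 for Slc1a2, the main astrocytic glutamate transporter, to -0.47 for Sox9, an astrocyte transcription factor. Agt, at -1.48, lay inside this range, and 4 of the 12 markers, Slc1a2, Gja1, Gjb6 and Fgfr3, fell more than Agt. Of 6 markers of meninges and fibroblasts, 2 were called lower as deposited and 0 after median-centring, when 2 had an unadjusted p-value under 0.05 by limma (16.9% of all loci). All 6 had values below 0 on both scales, with medians of -0.61 and -0.36. Their summed level was 65.3 to 135.6 TPM in PLM, 99.0 to 244.3 TPM in SNI and 137.0 to 364.5 TPM in JA, which overlapped between PLM and SNI and was apart between PLM and JA, where the median difference was -1.01 and limma called 0 of the 6, 4 having an unadjusted p-value under 0.05 (11.8% of all loci). All 5 Schwann cell markers tested were below 0 on both scales too, with medians of -0.67 and -0.42, but the samples of the groups overlapped for each and 0 had an unadjusted p-value under 0.05 by limma. In SNI versus JA the markers of meninges and fibroblasts went the other way from Agt. Their medians were -0.34 as deposited, with 5 of 6 below 0, and -0.46 after median-centring, with 6 of 6 below 0. Agt was there at 0.58 and 0.46. The part of these cells in the level of Agt was not tested.

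A ratio within a sample is not moved by the fixed total of TPM, so Agt was also taken relative to the summed TPM of the 12 astrocyte markers. Agt came to 6.26%, 6.35% and 6.72% of this sum in SNI replicates 1, 2 and 3, and to 4.61%, 3.86% and 3.79% in the PLM replicates. All PLM ratios were below all SNI ratios, with a mean log2 difference of -0.66 (exact permutation test, two-sided, p = 0.1, which is the smallest that 3 against 3 samples can give). In JA the ratios were 6.20%, 5.23% and 3.53%, below all SNI ratios and on both sides of PLM, with differences of 0.41 for SNI versus JA (exact two-sided permutation p = 0.1) and -0.26 for PLM versus JA (exact two-sided permutation p = 0.4). The size of the difference between PLM and SNI depended on which markers were summed, and S100b and Aldoc alone gave 77.1% to 86.4% of the sum. Over the other 10 markers, an alternative chosen after seeing the data, the ratios of PLM and SNI overlapped. They were 32.1%, 27.7% and 33.0% in SNI and 30.6%, 28.4% and 24.5% in PLM, a log2 difference of -0.15 (exact two-sided permutation p = 0.3). In JA they were 28.8%, 22.9% and 20.7%, so that JA replicate 1 lay above SNI replicate 2 and those groups overlapped as well, with a difference of 0.37 for SNI versus JA (exact two-sided permutation p = 0.2), while PLM versus JA turned to 0.21 (exact two-sided permutation p = 0.3). With the mean of the log values of the 12 markers in place of their sum, PLM versus SNI was -0.22 (exact two-sided permutation p = 0.2), SNI versus JA was 0.17 (exact two-sided permutation p = 0.3) and PLM versus JA was -0.048 (exact two-sided permutation p = 0.9). Whether the astrocyte marker levels account for the level of Agt was not tested.

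**Figure D2:**
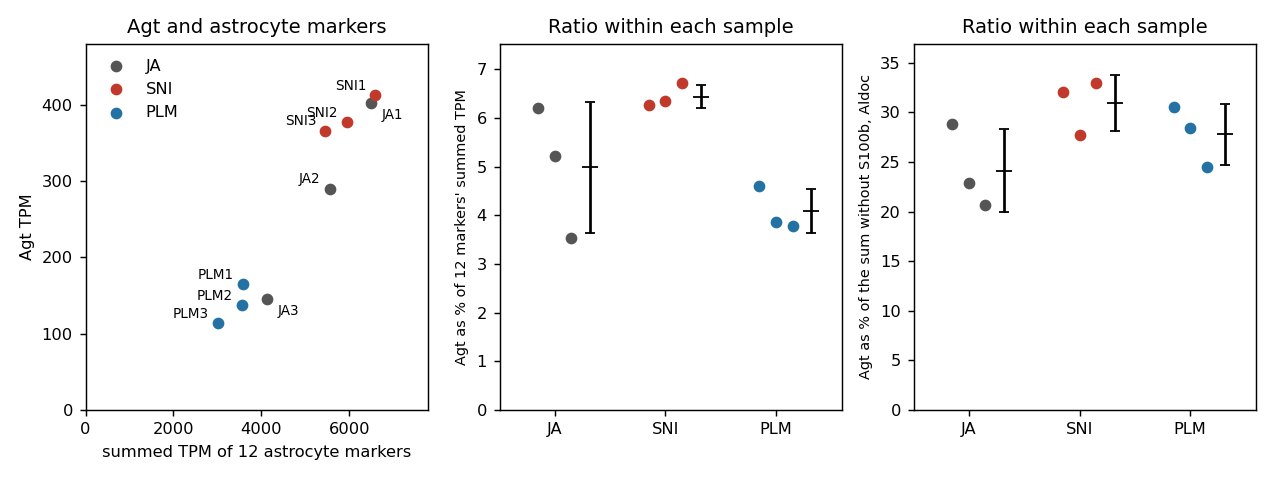
Left, Agt TPM against the summed TPM of 12 astrocyte markers in the 9 samples; middle and right, Agt as a percentage of the summed TPM of the 12 markers, and of the 10 markers other than S100b and Aldoc, with group means and SD (n = 3). JA replicate 3 lies near the PLM samples on the left, and the PLM and SNI ratios are apart in the middle panel (3.79% to 4.61% against 6.26% to 6.72%) and overlap in the right panel (24.5% to 30.6% against 27.7% to 33.0%).

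The genes whose levels followed Agt most closely over the 9 samples were Slc1a2 (Pearson's r = 0.998, Spearman's rho = 0.983), Ca6 (r = 0.996, rho = 0.950), Atp1b2 (r = 0.995, rho = 0.983), Phkg1 (r = 0.995, rho = 0.917) and Slc6a11 (r = 0.994, rho = 1). These are the highest of 12450 named loci searched, on log2(TPM + 1), and are given as a description without a test. The 9 points share their libraries, the fixed total of TPM and the 3 groups. Slc1a2 and Slc6a11 carry glutamate and GABA into astrocytes, and Atp1b2 is a glial subunit of the sodium pump. Slc6a11 had a mean of 46.3 TPM in JA, 70.9 TPM in SNI and 19.8 TPM in PLM. That order of groups is also the order of Agt, which follows from how these loci were picked and is not read as common movement.

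Among the peptidases, Lnpep came nearest to the threshold. Lnpep encodes the insulin-regulated aminopeptidase, which binds angiotensin IV. It measured 7.55, 6.14 and 5.73 TPM in JA replicates 1, 2 and 3, 11.15, 9.86 and 8.49 TPM in the SNI replicates and 7.29, 6.64 and 7.41 TPM in the PLM replicates. Every SNI sample was above every sample of the other groups, while JA and PLM overlapped. SNI versus JA gave a log2 difference of 0.54 (SE 0.14, unadjusted p = 0.00738, adjusted p = 0.614, limma). PLM versus SNI gave -0.41 (SE 0.11, unadjusted p = 0.00828, adjusted p = 0.0537, limma). After median-centring, the difference between SNI and JA was 0.41 and their samples still did not overlap, whereas PLM versus SNI was -0.16 (adjusted p = 0.469, limma) with overlap. Where 1 TPM was required in every sample, Lnpep was called in PLM versus SNI, with an adjusted p-value of 0.0476 from limma.

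Ace encodes the angiotensin-converting enzyme. It measured 7.47, 6.63 and 6.16 TPM in JA replicates 1, 2 and 3, 7.63, 5.71 and 7.22 TPM in the SNI replicates and 5.66, 5.75 and 7.98 TPM in the PLM replicates. All 3 groups overlapped, and the highest of the 9 values was PLM replicate 3. Between PLM and SNI the log2 difference was -0.08, with a 95% interval from -0.46 to 0.30, and its sign turned after median-centring, to 0.17.

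Enpep encodes aminopeptidase A, which converts angiotensin II to angiotensin III. It measured 3.26, 2.83 and 3.57 TPM in JA, 3.11, 3.23 and 4.01 TPM in SNI and 2.48, 2.84 and 2.77 TPM in PLM. The PLM samples were below the SNI samples and overlapped JA in its replicate 2. Between PLM and SNI the log2 difference was -0.26 (SE 0.12, adjusted p = 0.164, limma) as deposited and -0.02 after median-centring.

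Of the angiotensin peptide receptors Agtr1a, Agtr2 and Mas1, only Agtr1a was high enough to be tested. It encodes the AT1a receptor, the main receptor through which angiotensin II acts in rats. Its level was 1.38, 1.45 and 1.34 TPM in JA replicates 1, 2 and 3, 1.44, 1.39 and 1.32 TPM in the SNI replicates and 0.77, 0.93 and 1.27 TPM in the PLM replicates. JA and SNI lay together, and all 3 PLM samples were below them, with PLM replicate 3 close to the lowest SNI value. The log2 difference was -0.27 in PLM versus SNI (SE 0.16, adjusted p = 0.263, limma) and -0.27 in PLM versus JA (SE 0.17, adjusted p = 0.582, limma). After median-centring, PLM versus SNI was -0.02 and PLM versus JA was -0.15, and PLM overlapped each of the other groups. Agtr1b, a close copy of Agtr1a with which reads can be shared, was at 0.03 to 0.23 TPM.

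Agtr2 encodes the AT2 receptor. It measured 0.20, 0.27 and 0.38 TPM in JA, 0.55, 0.37 and 0.45 TPM in SNI and 0.20, 0.35 and 0.37 TPM in PLM. The highest value was SNI replicate 1, and the SNI samples reached down to the highest value of PLM. Mas1 encodes the receptor for angiotensin 1-7. It measured 0.09, 0.29 and 0.15 TPM in JA, 0.28, 0.28 and 0.22 TPM in SNI and 0.05, 0.20 and 0.15 TPM in PLM. Its PLM samples were below its SNI samples and overlapped JA. With no filter on low values, PLM versus SNI gave log2 differences of -0.16 for Agtr2 (adjusted p = 0.273, limma) and -0.15 for Mas1 (adjusted p = 0.193, limma). At these levels the read depth, which TPM does not keep, sets a counting error that is unknown.

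Atp6ap2 encodes the (pro)renin receptor, which binds renin and prorenin and is also an accessory subunit of the vacuolar proton pump. It measured 117.2, 85.56 and 103.9 TPM in JA replicates 1, 2 and 3, 132.8, 121.5 and 126.6 TPM in the SNI replicates and 114.4, 115.6 and 115.9 TPM in the PLM replicates. SNI was above both other groups without overlap, and PLM lay within the range of JA, with the smallest spread of the 3 groups. The log2 difference was 0.32 in SNI versus JA (SE 0.12, unadjusted p = 0.0380, adjusted p = 0.614, limma), -0.14 in PLM versus SNI (SE 0.05, adjusted p = 0.123, limma) and 0.18 in PLM versus JA (SE 0.12, adjusted p = 0.589, limma). After median-centring, PLM versus SNI turned to 0.11, the PLM samples all lying above SNI (adjusted p = 0.390, limma), and PLM versus JA was 0.31, also without overlap.

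**Figure D3:**
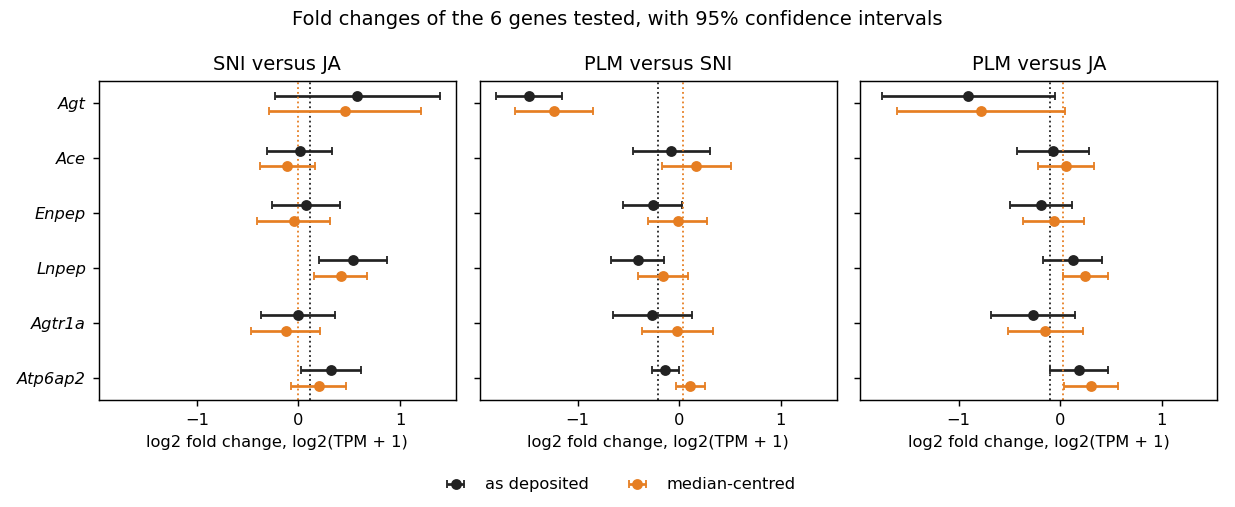
Differences of log2(TPM + 1) with 95% confidence intervals for the 6 genes tested in each pair of groups (3 samples a group), as deposited (black) and median-centred (orange); dotted lines mark the median of all loci tested. Agt in PLM versus SNI stands away from the dotted lines, at -1.48 and -1.23, while in SNI versus JA Agt, Lnpep and Atp6ap2 lie right of them, at 0.58, 0.54 and 0.32 as deposited, with the intervals of Agt and Atp6ap2 crossing the line of the median.

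In PLM versus SNI as deposited, all 6 tested genes had values below 0, the direction of the table as a whole. In PLM versus JA, 4 of the 6 did, while Atp6ap2 and Lnpep were above 0. In PLM versus SNI, 5 of the 6 were lower without overlap, all but Ace, and 41.9% of all loci were lower without overlap. Their median log2 difference was -0.27, against -0.21 for all loci. After median-centring, Agt alone was lower without overlap (9.73% of all loci) and Atp6ap2 alone was higher without overlap (14.1% of all loci). In SNI versus JA, 2 of the 6, Lnpep and Atp6ap2, were higher without overlap, as 12.1% of all loci were, and after median-centring both still were, as 4% of all loci were. Agtr1a was then lower without overlap, as were 6.87% of all loci. No gene of the 6 was called in SNI versus JA by limma, where 0% of 15557 loci were called, and the same 2 had an unadjusted p-value under 0.05, as 7.1% of all loci had. In PLM versus JA as deposited, limma called none of the 6 and 0.0195% of 15349 loci. Agt had an unadjusted p-value under 0.05 there (0.0408, against 0.0615 on the centred values, limma), as 11.8% of all loci had as deposited. Agtr1a was lower without overlap there, as were 15.7% of all loci. After median-centring, Lnpep and Atp6ap2 were instead higher than JA without overlap, as were 9.51% of all loci, and had unadjusted p-values of 0.0345 and 0.0299 by limma, where 5.26% of all loci were higher at an unadjusted p-value under 0.05.

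The loci nearest to the other tested members over the 9 samples are given as a description on the same scale. Being the highest of 12450 loci searched over 9 samples, they are picked for their height and are not read as common movement. Ace was nearest to Stx1a (r = 0.963, rho = 0.883) and Marchf4 (r = 0.881, rho = 0.800), and Enpep to Bmt2 (r = 0.954, rho = 0.983) and Tsga10 (r = 0.950, rho = 0.933). Lnpep was nearest to Rdx (r = 0.977, rho = 1) and Eml4 (r = 0.966, rho = 0.967). Agtr1a was nearest to Tmem109 (r = 0.983, rho = 0.950) and Apba3 (r = 0.975, rho = 0.883), and Atp6ap2 to Atp1b1 (r = 0.988, rho = 0.967) and Atl1 (r = 0.986, rho = 0.967). Atp1b1, a subunit of the sodium pump, had means of 748.4 TPM in JA, 1065 TPM in SNI and 905.9 TPM in PLM.

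The rest of the pathway was read from a list of 20 other renin-angiotensin genes, of which 15 were tested in PLM versus SNI. Mrgprd, a receptor for alamandine, and the 3 loci named Klk1, a tissue kallikrein, were listed at 0 in all 9 samples, and the mast cell proteases Cma1 and Cpa3 stayed at or below 0.14 TPM.

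As deposited, 7 of the 15 were called lower in PLM versus SNI and 0 higher, where 13.6% of all loci were called lower. The largest of these falls was in Prep, a prolyl endopeptidase that can form angiotensin 1-7, from 13.72 to 15.88 TPM in SNI to 10.46 to 11.65 TPM in PLM, by 0.40 on the log2 scale (adjusted p = 0.0319, limma). Ctsd, an aspartic protease that can cut angiotensinogen, fell from 299.2 ± 21.9 to 236.1 ± 12.2 TPM (SD, n = 3), by 0.34 on the log2 scale (adjusted p = 0.0366, limma). Agtrap, which binds the AT1 receptor and promotes its internalization, fell from 11.50 to 12.57 TPM in SNI to 8.69 to 9.58 TPM in PLM, also by 0.34 (adjusted p = 0.0380, limma).
The peptidases Nln, Thop1 and Rnpep and the carboxypeptidase Ctsa fell by 0.30 to 0.33. All 15 had values below 0, with a median of -0.31 against -0.21 for all loci. None of the 15 was called after median-centring, when 0 of them had an unadjusted p-value under 0.05 by limma, as 16.9% of all loci had, and the median was -0.07 against 0.04. With 1 sample left out at a time, 0 to 2 of the 15 were called, where 1.78% to 9.7% of all loci were. In SNI versus JA and in PLM versus JA none of the 14 tested was called by limma, 1 and 3 having an unadjusted p-value under 0.05, against 7.1% and 11.8% of all loci.

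**Figure D4:**
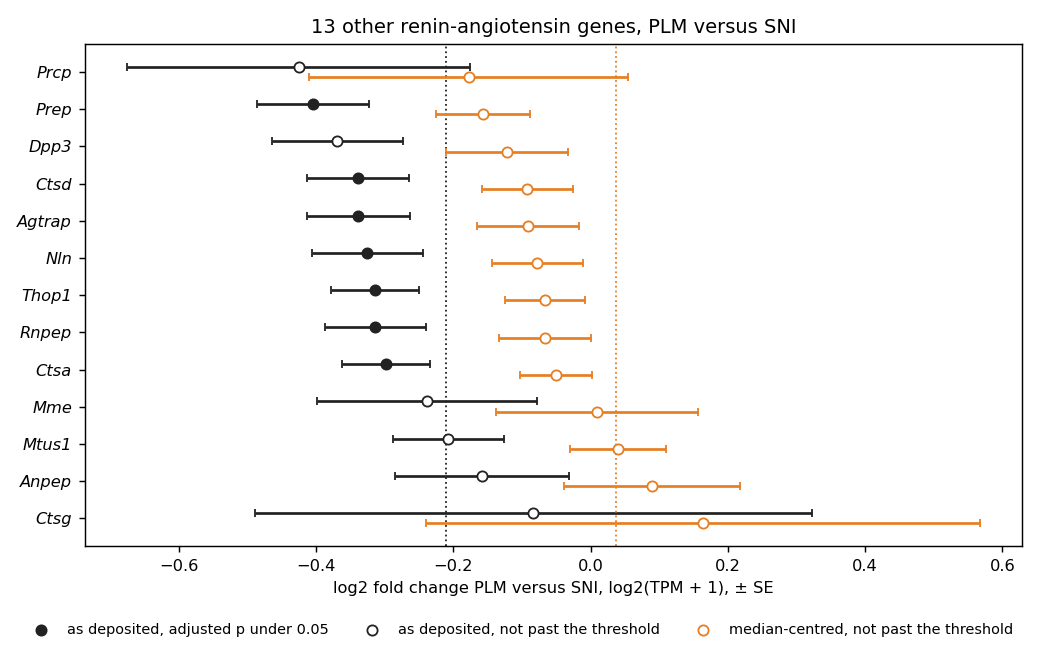
Differences of log2(TPM + 1) in PLM versus SNI, with standard errors, for 13 of the 15 other renin-angiotensin genes tested (3 samples a group), as deposited (black) and median-centred (orange), with dotted lines at the median of all loci. As deposited all 13 lie left of 0 and 7 pass the threshold (filled points), and after median-centring none passes it.

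Of 17 tested genes through which angiotensin receptors act inside the cell, with log2 differences from -0.73 to 0.16, 6 were called lower in PLM versus SNI as deposited and 0 higher, where 13.6% of all loci were called lower. Plcb1 and Plcb3, phospholipases C that act downstream of Gq proteins, fell from 6.20 ± 0.601 to 3.37 ± 0.655 TPM and from 6.01 ± 0.231 to 4.10 ± 0.463 TPM (SD, n = 3), by 0.73 and 0.46 on the log2 scale (adjusted p = 0.0269 and 0.0348, limma). Arrb1, a beta-arrestin, fell by 0.50, the G protein subunits Gna13 and Gna11 fell by 0.43 and 0.31, and the receptor kinase Grk5 fell by 0.37. Gna12, the most abundant of these G protein subunits, averaged 250.2 TPM over the SNI samples (SD 8.75, n = 3) and 247.1 TPM over the PLM samples (SD 2.83, n = 3).
The median of the 17 was -0.20, against -0.21 for all loci. After median-centring none was called lower and Rgs4, which limits Gq signalling, was called higher, at 0.41 (adjusted p = 0.0440, limma), where 0.814% of all loci were called in either direction. With quantile normalization in place of centring, 1 of the 17 was called higher by limma, where 1% of all loci were called in either direction. With the mitochondrial protein genes left out of the total instead, Rgs4 was at 0.31 and was not called. Its level as deposited was 18.11, 16.82 and 16.72 TPM in SNI replicates 1, 2 and 3 and 17.98, 19.80 and 20.51 TPM in the PLM replicates, which overlapped before centring. By limma on the centred values 6 of the 17 had an unadjusted p-value under 0.05, as 16.9% of all loci had, among them Plcb1 at -0.48 (unadjusted p = 0.00443). Without overlap 5 of the 17 were then lower in PLM (9.73% of all loci) and 3 were higher (14.1% of all loci). With 1 sample left out at a time, 0 to 2 of the 17 were called, against the same 1.78% to 9.7% of all loci. In SNI versus JA and in PLM versus JA limma called none, 2 and 4 of the 17 having an unadjusted p-value under 0.05, against 7.1% and 11.8% of all loci.

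Of the transcription factors known at the Agt promoter, 7 were tested and 2 were called lower in PLM versus SNI as deposited, where 13.6% of all loci were called lower. Stat3, which carries cytokine signals, measured 23.81, 22.77 and 24.22 TPM in SNI replicates 1, 2 and 3 and 14.88, 15.48 and 18.39 TPM in the PLM replicates, a log2 difference of -0.52 (adjusted p = 0.0245, limma). Nfkb1, a subunit of NF-kappaB, fell from 10.7 ± 0.806 to 7.78 ± 0.902 TPM (SD, n = 3), by 0.42 on the log2 scale (adjusted p = 0.0481, limma). The samples of the 2 groups did not overlap for either gene.
Nr3c1, the glucocorticoid receptor, ranged from 12 to 16.58 TPM over the SNI samples and from 12.26 to 14.69 TPM over the PLM samples. The median of the 7 was -0.34, against -0.21 for all loci. After median-centring the median was -0.09, against 0.04 for all loci. Neither Stat3, at -0.27, nor Nfkb1, at -0.17, was then called. Stat3 alone had an unadjusted p-value under 0.05 (0.0108 by limma, as 16.9% of all loci had) and it alone was lower without overlap (9.73% of all loci), while 1 of the 7 was higher without overlap (14.1% of all loci). As deposited, with 1 sample left out at a time, 0 or 1 of the 7 was called (1.78% to 9.7% of all loci). Hnf4a, a liver factor, and Esr1, an estrogen receptor, were both at or below 0.59 TPM. None of the 7 was called by limma in SNI versus JA or PLM versus JA, and 0 had an unadjusted p-value under 0.05 in either, where 7.1% and 11.8% of all loci had.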

How the data were processed

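The authors trimmed reads with fastp 0.19.5, aligned them with HISAT2 v2.0 and computed expression with StringTie v1.3.3b. The rat genome build is not given in the sources used here, since the submitters' processing notes name GRCh38.p13, a human assembly. The authors deposited 1 table of TPM values in 2 decimals. The unit was read from the column totals. TPM keeps no read depth, so depth and counting error are unknown and count tests were not run.

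Samples were grouped by their labels. Each pair of groups (6 samples) was fitted on log2(TPM + 1) by limma 3.58.1 (R 4.3.3), its variance following a trend, without covariates. The fit was tested on simulated data with as many rises as falls and no shift of all loci, which differs from PLM versus SNI as deposited. The 8 genes and all lists were chosen with earlier results of these data known. Of the 3 lists, every gene called in any pair was named, and any other was chosen after its values were seen. For likeness, the 5 loci nearest to Agt and the 2 nearest to each other tested member were named. Alternatives were the scaling, filter, pseudocount, replicate block, threshold and left-out samples. Some genes of the lists are not reported here.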

Additional observations from a re-analysis of the deposited data

How the results depend on the processing

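Agt remained called in PLM versus SNI under all alternatives run, and no member was called in the other pairs. Requiring 1 TPM in every sample raised the members called from 1 to 2, and all loci called from 13.9% to 19%. Agt relative to astrocyte markers moved from -0.66 to -0.22 with the mean of the markers' log values and to -0.15 without S100b and Aldoc, where PLM versus JA was 0.21. The cause was not tested.

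Directions turned in Ace, Atp6ap2, Enpep and Agtr1a, none of which was called. In PLM versus SNI, Ace was 0.17, 0.17 and 0.051, and Atp6ap2 0.11, 0.063 and 0.010, with median-centring, quantile normalization and without the mitochondrial protein genes. In SNI versus JA, Ace was -0.11, -0.11 and -0.068 under the same settings, and Enpep -0.047 and -0.029 under the first pair of settings. In PLM versus JA, Ace was 0.058 and 0.062 under that pair. With 1 sample left out at a time, SNI versus JA ranged from -0.059 to 0.12 for Ace, -0.014 to 0.13 for Enpep and -0.021 to 0.015 for Agtr1a, and PLM versus JA from -0.21 to 0.0095 for Ace. Of 268 member values under alternatives, 247 kept direction and side of the threshold. Of 225 values of named list genes, 184 were no longer past it.

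Same-numbered samples deviated together weakly (r from -0.05 to 0.12), so the numbers were not taken as pairs. With a replicate block the members called were 1 in PLM versus SNI (Agt, adjusted p = 0.0211, limma) and 0 in the other pairs, while 0 genes of the 3 other lists were called in place of 7, 6 and 2, where 0.982% of all loci were called in place of 13.9%. In a fit to all 9 samples these lists had 1, 0 and 0, where 3.04% of all loci were called.

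With 3 samples a group and unknown depth, small differences of low genes such as Agtr2 and Mas1 cannot be told from counting error. In genes whose direction turned with the scaling, a share of the fixed TPM total taken by other RNA cannot be told from a change of the gene. Agt in PLM versus SNI was -1.23, -1.32 and -1.34 with median-centring, quantile normalization and without the mitochondrial protein genes (adjusted p = 0.0386, 0.0214 and 0.0156, limma).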
